A study of Homo sapiens with 12 samples.

Results

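The collagen, laminin and fibronectin genes were taken as the protein-coding genes whose symbol is COL, a number, A and a number, or LAMA, LAMB or LAMC and a number, together with FN1. The rule used names and no measured value. It found 57 genes among the 36315 genes with which the deposited transcripts were paired, namely 44 collagen chains, 12 laminin chains and FN1, and all 57 were among the 21601 genes tested. RNA was measured in HMC3 cells, an immortalized human cell line used as a model of microglia, with 12 libraries in 4 groups of 3. The EphB2 + ephrin-B1 siRNA group received ephrin-B1 siRNA for 48 h and then pre-clustered EphB2-Fc (2 ug/mL) for 24 h. The EphB2 group received negative control siRNA and EphB2-Fc, the ephrin-B1 siRNA group received ephrin-B1 siRNA and Ctrl-Fc, and the Ctrl group received negative control siRNA and Ctrl-Fc, on the same schedule. All groups come from 1 cell line, and Ctrl cells were transfected and Fc-treated too.

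Collagens are triple helices of 3 chains in which glycine recurs at a fixed spacing along each chain, and the chains that assemble together decide the type of fibre or network. Fibrillar collagens make the fibres of connective tissue, collagen IV and the laminins make the sheet of the basement membrane, collagen VI makes beaded filaments around cells, and fibronectin is the dimer on which other matrix proteins are laid down. In the brain, basement membrane collagen and laminin surround the vessels, whereas fibrillar collagen is mostly a product of fibroblasts and pericytes. EphB2 is a receptor tyrosine kinase whose ligands, the ephrin-B proteins, themselves signal into the cell that carries them when EphB2 binds, and EFNB1 codes for ephrin-B1.

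The glycine repeat can be read in the coding sequence of the members that the results turn on. Each line gives the first 5 triplets of the longest unbroken run in the chain, from the GRCh38 coding sequence on the coding strand, with the glycine codons in capitals.
COL1A1: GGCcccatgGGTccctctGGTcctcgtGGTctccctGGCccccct
COL1A2: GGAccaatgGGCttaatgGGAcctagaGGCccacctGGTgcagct
COL6A1: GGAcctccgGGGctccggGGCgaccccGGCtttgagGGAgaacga
COL6A2: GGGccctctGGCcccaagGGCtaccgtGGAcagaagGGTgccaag
COL4A1: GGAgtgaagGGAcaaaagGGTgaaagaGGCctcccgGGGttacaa
COL4A2: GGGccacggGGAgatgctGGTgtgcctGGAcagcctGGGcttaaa
COL4A5: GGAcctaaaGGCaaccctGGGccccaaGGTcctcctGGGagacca
These stretches begin at codon 179 of COL1A1 (chr17:50184101-50201632), codon 91 of COL1A2 (chr7:94394895-94431227), codon 257 of COL6A1 (chr21:45981770-46005050), codon 256 of COL6A2 (chr21:46098112-46132848), codon 43 of COL4A1 (chr13:110148963-110307157), codon 782 of COL4A2 (chr13:110305812-110513209) and codon 1249 of COL4A5 (chrX:108439838-108697545), counted from the start codon. The longest run without a break was 338 triplets in COL1A1 and 339 in COL1A2, 87 in both COL6A1 and COL6A2, and 40, 66 and 42 in COL4A1, COL4A2 and COL4A5, whose helix is interrupted many times. Across the 44 collagens the longest run lay between 23 triplets (COL26A1) and 343 (COL3A1). In the laminins and FN1, which have no such helix, it was 2 to 4.

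Estimated counts per library lay between 13230689 and 25785591. TPM is a level scaled to transcript length and library. Of the marker lists, 10 of 11 fibroblast and pericyte genes and 3 of 12 microglia genes had a mean of at least 1 TPM. The microglia genes that did were CD68, CSF1R and TMEM119. None was at 0 in every library before the estimated counts were rounded. After rounding, AIF1 had 0 counts over the 12 libraries, C1QA 1, TYROBP 2 and CX3CR1 3, and 8 of the 12 microglia genes reached the 10 counts needed for testing. Most defining genes of microglia were therefore below 1 TPM in these cells. The same level was reached by 4 of 4 epithelium, 3 of 4 astrocyte, 3 of 4 neuron and 1 of 4 endothelium genes, so reaching it does not mark 1 cell type. The summed level of the microglia list was 26.6 to 32.8 TPM in EphB2 + ephrin-B1 siRNA, 32.1 to 37.7 TPM in EphB2, 26.2 to 35.8 TPM in ephrin-B1 siRNA and 23.4 to 28.7 TPM in Ctrl, so that EphB2 lay above Ctrl. Most of the sum was CD68, a lysosomal protein, with a mean of 29.4 TPM in EphB2 and 21.4 TPM in Ctrl. The part of this in the member results was not tested. In bulk RNA, fewer cells of a type and less RNA per cell cannot be told apart.

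The members were led by a few genes at very high levels. FN1 had a mean of 1705 TPM and COL1A1, the main chain of collagen I, of 908 TPM, and these 2 genes held 40.3% and 21.4% of the summed TPM of all members. They were followed by COL8A1, a short network-forming chain (224 TPM), the laminin chain LAMB1 (221 TPM), COL6A2 (191 TPM), COL6A1 (183 TPM) and COL4A2 (164 TPM). The next were LAMB2 (116 TPM), COL4A1 (83.4 TPM), LAMC1 (76.0 TPM), COL11A1 (68.4 TPM) and COL18A1 (54.0 TPM). In all, 19 members had a mean of at least 10 TPM, 14 lay between 1 and 10 TPM, and 24 lay below 1 TPM. Among the genes named here, the ranges of neighbours in this order overlapped over the 12 libraries, except between COL1A1 (lowest 662 TPM) and COL8A1 (highest 325 TPM). Members took 1.65 to 1.93% of the counts of a library in EphB2 + ephrin-B1 siRNA, 1.81 to 2.41% in EphB2, 1.58 to 1.84% in ephrin-B1 siRNA and 1.73 to 2.41% in Ctrl.

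**Figure D1:**
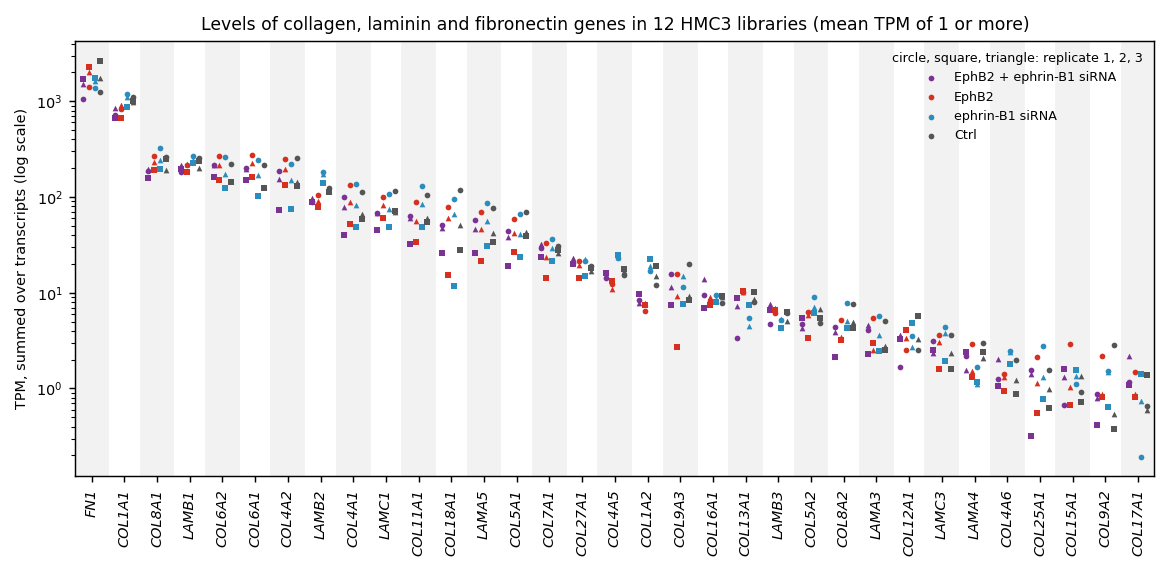
Level of the 33 members with a mean of at least 1 TPM in each of the 12 libraries (log scale, TPM summed over the transcripts of a gene), in order of the mean, with colours for the 4 groups and symbols for the replicate number. FN1 (mean 1705 TPM) and COL1A1 (908 TPM) stand apart from the rest, and the symbols of 1 replicate number lie on the same side in several genes.

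The partners of 1 trimer were at unequal levels. Collagen I is built from 2 COL1A1 chains and 1 COL1A2 chain, but COL1A2 had a mean of 12.7 TPM, and the ratio of COL1A1 to COL1A2 in TPM lay between 38.3 and 131 over the libraries. COL3A1, the chain of collagen III that accompanies collagen I in most connective tissue, had 14 counts over the 12 libraries. Of the 3 main chains of collagen VI, COL6A1 and COL6A2 were close to each other, with a ratio of 0.824 to 1.08, and COL6A3 had a mean of 0.738 TPM. In collagen IV, COL4A2 exceeded COL4A1 by a ratio of 1.54 to 2.56, which is the reverse of the 2 COL4A1 chains to 1 COL4A2 chain in the protein. Among laminins, LAMA5 (49.5 TPM) was the highest alpha chain, LAMB1 and LAMB2 the highest beta chains and LAMC1 the highest gamma chain, and LAMA5, LAMB1 and LAMC1 are the chains of laminin 511. In CPM, which are counts scaled to library size after TMM normalization and serve to compare groups, LAMB1 had 716, 838 and 790 (EphB2 + ephrin-B1 siRNA), 699, 837 and 810 (EphB2), 765, 894 and 826 (ephrin-B1 siRNA) and 809, 889 and 851 (Ctrl). These ranges overlapped, and LAMB1 passed in no comparison.

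COL4A1 and COL4A2 lie head to head on chromosome 13 and are known to share a promoter. The RefSeq windows of 250 bases before to 50 after their start sites (GRCh38.p14) overlap by 226 bases, and the start sites are 127 bases apart. The shared stretch is shown because both genes are described together below. It lies at chr13:110307108-110307333 and is written on the strand of COL4A2, with the motifs CCAAT and GGGCGG, searched on both strands, in capitals.
COL4A1 and COL4A2: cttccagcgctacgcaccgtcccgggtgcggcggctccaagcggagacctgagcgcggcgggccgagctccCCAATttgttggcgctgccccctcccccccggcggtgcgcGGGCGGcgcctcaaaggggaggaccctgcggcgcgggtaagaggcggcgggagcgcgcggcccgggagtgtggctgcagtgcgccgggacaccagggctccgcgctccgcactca
CCAAT is a box bound by NF-Y and GGGCGG a box bound by SP1. At least 1 CCAAT stood in 34.6% and at least 1 GGGCGG in 45.0% of the 35116 promoter windows of all genes, against 30.4% and 58.9% of the 56 windows of the 42 members that were matched, so these letters are common and describe the stretch only.

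EFNB1, the target of the siRNA, was lower in all libraries that received it. Its level was 6.56, 6.03 and 6.38 CPM in EphB2 + ephrin-B1 siRNA replicates 1, 2 and 3, 7.10, 6.60 and 8.70 CPM in ephrin-B1 siRNA, 15.6, 18.8 and 18.4 CPM in EphB2, and 20.4, 17.5 and 19.3 CPM in Ctrl. The log2 fold change of ephrin-B1 siRNA vs Ctrl was -1.35 (SE 0.13, adjusted p = 0.00124 by the quasi-likelihood test of edgeR). Without replicate 3 in every group it did not pass without a block (-1.47, adjusted p = 0.747).

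The submitted names give 1 experiment number to all libraries of a replicate number. Such libraries differed together for numbers 1 and 2 (correlations of 0.67 to 0.75) and hardly for number 3 (0.03 to 0.18), and each comparison was fitted both ways, without a block and with a block for the replicate number. In what follows, fold changes are on the log2 scale and, unless another fit is named, come from the fit with the block, and "rose" and "fell" stand for an adjusted p under 0.05 in that fit. Without the block edgeR called 0 members in the 4 comparisons of 1 treatment, so its calls there rest on the pairing, while DESeq2 without the block called 1 to 4 members in each. For genes of at least 10 CPM that differed at least 2-fold between replicates 1 and 2, replicate 3 lay between them in 95.2 to 97.5%. The paper states 3 biological replicates for the RNA sequencing. Whether replicate 3 was an independent experiment could not be settled from the labels or the values, and if it was not, n = 3, the SDs and the p-values count too many samples. For this reason the number of calls that replicates 1 and 2 alone gave with the block is stated beside each count.

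With EphB2-Fc in cells with control siRNA, both collagen I chains fell and both main collagen VI chains rose. Of 57 members, 10 passed with the block (17.5%), where 5.34% of all genes tested passed. Of these 4 rose, where 2.13% of all genes did, and 6 fell, where 3.2% did. All 10 were among the 27 members with a mean of at least 10 CPM, and 10.3% of the genes at that level passed. The groups did not overlap in 6 members, against 12.6% of all genes. The risers were COL6A1, COL6A2, COL4A1 and LAMB3 and the fallers COL1A1, COL1A2, COL11A1, COL4A5, LAMB2 and LAMA5. Over all 57 members the median log2 fold change without the block was -0.01, with 28 members up and 29 down, so the members did not share a direction. Without the block edgeR called 0 members (0.037% of all genes), 7 had an unadjusted p under 0.05, DESeq2 called 2 (COL1A1 and LAMB2) and limma 0. With the block and without replicate 3 there were 3 calls (COL1A2, COL6A1 and COL11A1). COL1A2 and COL6A1 were called with the block whichever replicate number was left out.

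COL1A1 had 2665, 2747 and 2974 CPM in EphB2 against 3585, 3462 and 3598 CPM in Ctrl. All EphB2 libraries lay below all Ctrl libraries, and the fold change was -0.34 (SE 0.045, blocked adjusted p = 0.000675, unblocked adjusted p = 0.238). COL1A2, the other chain of collagen I, had 20.1, 38.2 and 30.5 CPM in EphB2 against 32.7, 70.0 and 67.5 CPM in Ctrl. Every EphB2 library was below the Ctrl library of its replicate number, although the groups overlapped, with replicate 1 low in both. The log2 fold change of COL1A2 was -0.93 (SE 0.12, blocked adjusted p = 0.000573, unblocked adjusted p = 0.532). The ratio of COL1A1 to COL1A2 in TPM averaged 113 ± 20.7 in EphB2 and 69.8 ± 20.0 in Ctrl (SD, n = 3 each). COL11A1, a fibrillar chain that can join collagen V and XI fibres, fell by 0.26 (SE 0.046), with 265, 161 and 234 CPM in EphB2 against 341, 197 and 257 CPM in Ctrl. The other fibrillar chains named here did not pass, and COL5A1 and COL5A2 of collagen V had fold changes of -0.19 (95% interval -0.39 to 0.01) and -0.15 (-0.43 to 0.14).

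COL6A1 had 748, 620 and 715 CPM in EphB2 against 552, 363 and 430 CPM in Ctrl. The lowest EphB2 library lay above the highest Ctrl library, and the fold change was 0.65 (SE 0.067, blocked adjusted p = 0.000108, unblocked adjusted p = 0.371). COL6A2 had 598, 462 and 533 CPM in EphB2 against 495, 336 and 386 CPM in Ctrl. It was higher in every pair, with groups that overlapped, and rose by 0.40 (SE 0.052, blocked adjusted p = 0.000645). The third chain, COL6A3, needed for the usual collagen VI trimer, had 8.29, 1.90 and 6.06 CPM in EphB2 against 5.02, 3.05 and 1.41 CPM in Ctrl and did not pass (0.68, 95% interval -0.12 to 1.49). Of the beaded filament class all 5 measured chains had a positive fold change without the block, where 11096 of 21601 genes had one. For COL6A5 all 12 counts lay in EphB2 replicate 1 (0.686 CPM, with 0.0 CPM in every other library). It passed the count minimum through that library alone, so its sign was fixed in advance and says nothing about the class.

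Among basement membrane genes, COL4A1 rose by 0.29 (SE 0.067), with 534, 311 and 458 CPM in EphB2 against 452, 267 and 348 CPM in Ctrl. COL4A2, which shares the promoter shown above, had a fold change of 0.20 (95% interval 0.02 to 0.38) and did not pass (blocked adjusted p = 0.211). COL4A5, a collagen IV chain of the X chromosome that is mutated in Alport syndrome, went the other way. It had 36.9, 49.1 and 41.8 CPM in EphB2 against 53.2, 59.6 and 53.2 CPM in Ctrl, with no overlap, and fell by 0.38 (SE 0.071). LAMB2, the laminin beta chain of synapses and of the glomerular basement membrane, had 153, 157 and 157 CPM in EphB2 against 182, 200 and 186 CPM in Ctrl. These groups did not overlap either, and LAMB2 fell by 0.28 (SE 0.047). LAMA5 fell by 0.23 (SE 0.055). With the block its fold change was -0.20, -0.25 and -0.27 without replicate 1, 2 and 3, and only the second of these passed. It turned to 0.10 when Ctrl replicate 1 was left out of the unblocked fit, which does not pair libraries. Its Ctrl libraries alone ranged between 137 and 319 CPM. LAMB3, a beta chain of the epithelial laminin 332, rose by 0.38 (SE 0.085), with 16.0, 19.4 and 19.7 CPM in EphB2 and 12.6, 16.1 and 13.6 CPM in Ctrl, but DESeq2 with the same block did not call it (adjusted p = 0.0569). FN1 did not pass (0.11, 95% interval -0.05 to 0.27), nor did COL8A1 (-0.05, -0.19 to 0.08) or LAMC1 (0.08, -0.05 to 0.20). COL4A1, COL11A1, LAMA5 and LAMB3 overlapped between EphB2 and Ctrl and moved the same way in every pair.

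The EphB2 effect was then estimated in cells with ephrin-B1 siRNA, with no library in common. The replicate numbers and the fit were the same, so this is not an independent experiment. In EphB2 + ephrin-B1 siRNA compared with ephrin-B1 siRNA 11 of 57 members (19.3%) passed with the block, where 6.93% of all genes did, and 10 of these were among the 27 members of at least 10 CPM, where 13.2% of the genes passed. Of the 11, 6 rose (2.82% of all genes) and 5 fell (4.11%), and 12 members did not overlap between the groups (14.6% of all genes). Without the block edgeR called 0 members (0.116% of all genes), 9 had an unadjusted p under 0.05, DESeq2 called 4 (COL1A1, COL27A1, LAMB2 and LAMB3) and limma 0. Without replicate 3 the block gave 6 calls (COL1A2, COL11A1, COL6A1, COL6A2, COL27A1 and LAMB3). Both states called COL1A1, COL1A2, COL11A1, COL4A5, LAMB2, COL6A1, COL6A2 and LAMB3, which are 8 genes, or 80.0% of the 10 in the first state and 72.7% of the 11 in the second. All 8 had the same sign in both. Over all genes, 619 were called in both states, which is 53.7% and 41.4% of the 2 lists, and 64.6% of all genes had the same sign, beside 38 of the 57 members.

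COL6A1 had 641, 519 and 598 CPM in EphB2 + ephrin-B1 siRNA against 482, 307 and 405 CPM in ephrin-B1 siRNA. The groups again did not overlap, and the fold change was 0.57 (SE 0.067), beside 0.65 with control siRNA. On log2(TPM + 1) with limma it was smaller, at 0.16 for COL6A1 and 0.14 for COL6A2, and neither passed. In TPM the groups overlapped, with 203, 150 and 195 TPM of COL6A1 in EphB2 + ephrin-B1 siRNA against 243, 103 and 168 TPM in ephrin-B1 siRNA, where the first pair went down. COL1A2 had 29.4, 45.4 and 30.5 CPM in EphB2 + ephrin-B1 siRNA, against 43.9, 87.8 and 70.2 CPM in ephrin-B1 siRNA. It was lower in every pair and fell by 0.89 (SE 0.12), beside 0.93 with control siRNA. COL1A1 fell by 0.26 (SE 0.045), COL11A1 by 0.33 (SE 0.046), COL4A5 by 0.48 (SE 0.068) and LAMB2 by 0.36 (SE 0.047), and COL6A2 rose by 0.40 (SE 0.052) and LAMB3 by 0.64 (SE 0.087).

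COL27A1, COL7A1 and COL17A1 passed with ephrin-B1 siRNA and not with control siRNA. COL27A1, a fibrillar collagen of cartilage, had 74.5, 80.8 and 83.5 CPM in EphB2 + ephrin-B1 siRNA against 56.3, 61.0 and 62.7 CPM in ephrin-B1 siRNA, with no overlap, and rose by 0.41 (SE 0.053, unblocked adjusted p = 0.0648). COL7A1, which makes the anchoring fibrils of the skin, had 169, 134 and 166 CPM in EphB2 + ephrin-B1 siRNA against 122, 109 and 122 CPM in ephrin-B1 siRNA and rose by 0.41 (SE 0.081). COL17A1, a transmembrane collagen of hemidesmosomes, had 3.58, 4.68 and 5.91 CPM in EphB2 + ephrin-B1 siRNA against 0.0526, 2.10 and 2.45 CPM in ephrin-B1 siRNA and rose by 1.98 (SE 0.50). Without replicate 1 its fold change was 1.21 and passed, and without replicate 2 or 3 it was 2.50 and 2.59 and did not, and DESeq2 with the block gave it no adjusted p. The test of the difference between both EphB2 effects, the interaction, called 0 of 57 members without the block (0.0% of all genes) and 0 with it (0.00463%). In the edgeR fit without the block 2 members had an unadjusted p under 0.05, COL7A1 (0.54, SE 0.21) and COL27A1 (0.25, SE 0.099), both values from that fit. DESeq2 called 0 without the block and COL7A1 with it (adjusted p = 0.00251, where edgeR with the block gave 0.361). The call of COL7A1 thus depended on the tool, and no other member had one.

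**Figure D2:**
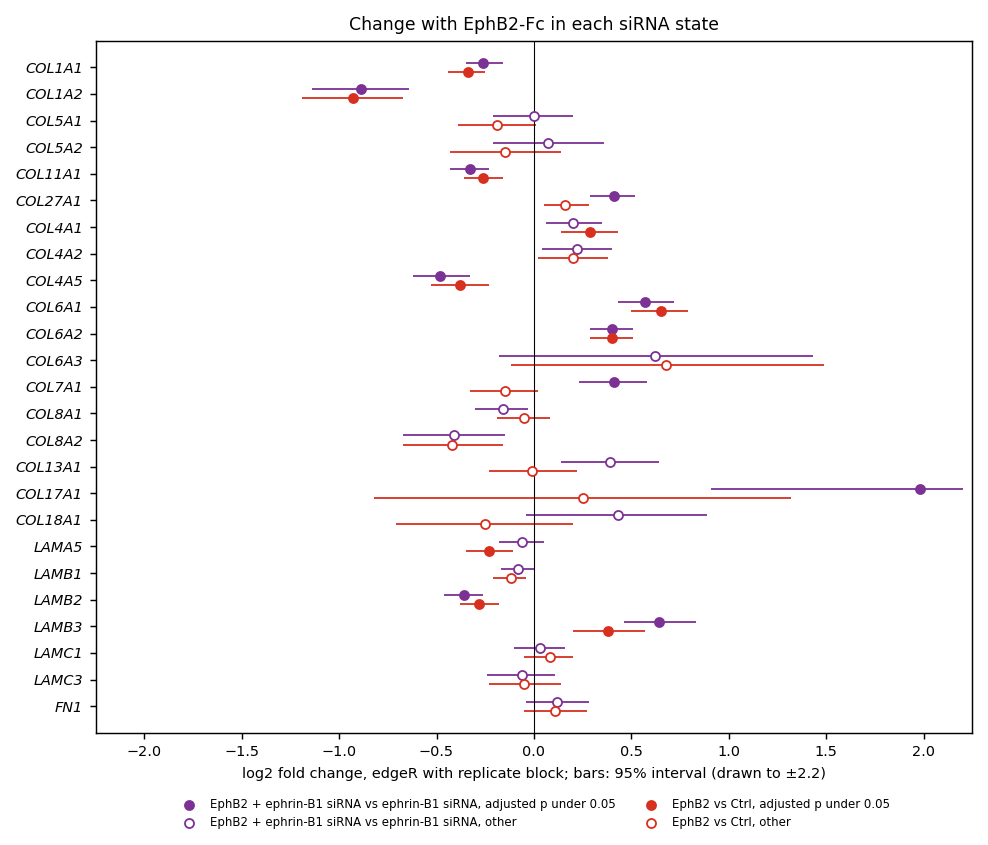
Log2 fold change with EphB2-Fc of the 25 members given in full, in cells with ephrin-B1 siRNA (purple) and with control siRNA (red), from the fit with the replicate block, with 95% intervals (filled: adjusted p under 0.05). COL1A1, COL1A2, COL11A1, COL4A5 and LAMB2 lie left of 0 and COL6A1, COL6A2 and LAMB3 right of 0 in both states, while the filled COL17A1 point rests on few reads.

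With ephrin-B1 siRNA, COL4A2, COL5A1, COL13A1 and LAMC1 fell and COL4A5 and LAMB2 rose. In ephrin-B1 siRNA vs Ctrl 12 of 57 members passed with the block (21.1%), where 13.6% of all genes did, and all 12 were among the 27 members of at least 10 CPM, where 26.0% of the genes passed. Of these 3 rose (6.51% of all genes) and 9 fell (7.06%), and 9 members did not overlap between the groups (18.1% of all genes). COL13A1, FN1, COL5A1, COL4A2, LAMC1, LAMB3, LAMA5, COL27A1 and COL1A1 fell, and COL4A5, LAMB2 and LAMC3 rose. DESeq2 with the same block did not call FN1 (adjusted p = 0.131), LAMB3 (0.0528) or LAMC3 (0.143). Of all members 35 had a negative and 21 a positive fold change without the block (median -0.12), where 10901 and 10674 of the 21601 genes had one. Without the block edgeR called 0 members (1.81% of all genes), 9 had an unadjusted p under 0.05, DESeq2 called 2 (COL4A5 and LAMB2) and limma 0. Leaving out ephrin-B1 siRNA replicate 1 from the unblocked fit gave 2 calls (COL4A5 and LAMB2). Without replicate 3 the block gave 5 calls (COL13A1, COL4A2, COL4A5, COL5A1 and LAMC1), and these same 5 were called whichever replicate number was left out. Ctrl is also the reference of the EphB2 comparison, so both comparisons share its 3 libraries.

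COL13A1, a transmembrane collagen of cell adhesions and of the neuromuscular junction, showed the largest fall among the members with a call. It had 5.73, 10.7 and 7.12 CPM in ephrin-B1 siRNA against 10.6, 20.0 and 16.7 CPM in Ctrl. Each siRNA library was near the middle of the range from 0 to its Ctrl partner, the groups overlapped at replicate 1 of Ctrl, and the fold change was -1.01 (SE 0.11, blocked adjusted p = 4.96e-05, unblocked adjusted p = 0.253). FN1 had 6534, 11709 and 9330 CPM in ephrin-B1 siRNA against 7170, 16982 and 12628 CPM in Ctrl. Every pair was lower and the fold change was -0.37 (SE 0.074), with an adjusted p of 0.00404 by edgeR with the block that DESeq2 with the block (0.131) and the block without replicate 2 or 3 (0.0746 and 0.152) did not keep under 0.05, while replicates 1 and 2 of Ctrl stood further apart than the groups. LAMC1, the gamma chain of most laminins, had 341, 230 and 274 CPM in ephrin-B1 siRNA against 405, 331 and 355 CPM in Ctrl and fell by 0.38 (SE 0.059).

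COL4A2 had 688, 359 and 548 CPM in ephrin-B1 siRNA against 925, 564 and 737 CPM in Ctrl and fell by 0.50 (SE 0.084). COL4A1, its partner across the shared promoter, had a fold change of -0.17 (95% interval -0.32 to -0.03) that did not pass (blocked adjusted p = 0.124). The ratio of COL4A2 to COL4A1 in TPM was 1.54 to 1.85 in ephrin-B1 siRNA and 2.14 to 2.28 in Ctrl, with no overlap. With EphB2-Fc the ratios overlapped, at 1.80 to 1.94 in EphB2 + ephrin-B1 siRNA and 1.88 to 2.56 in EphB2. COL5A1 fell by 0.52 (SE 0.094), with 303, 152 and 223 CPM in ephrin-B1 siRNA against 394, 251 and 308 CPM in Ctrl, and COL5A2, its partner in collagen V, did not pass (-0.09, 95% interval -0.37 to 0.20). COL1A1 fell by 0.17 (SE 0.045), without overlap between 3175, 3044 and 3242 CPM in ephrin-B1 siRNA and the Ctrl values given above. COL1A2 did not pass and had a fold change of 0.25 (95% interval 0.00 to 0.49). LAMB3 fell by 0.37 (SE 0.088), COL27A1 by 0.21 (SE 0.053) and LAMA5 by 0.23 (SE 0.054). LAMA5 had 0.13 in the unblocked fit without Ctrl replicate 1, which does not pair libraries. With the block it had -0.26, -0.20 and -0.23 without replicate 1, 2 and 3. On log2(TPM + 1) with limma the fold changes of COL1A1, COL27A1 and LAMA5 had the other sign, at 0.03, 0.10 and 0.16.

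COL4A5 and LAMB2, which fell with EphB2-Fc, rose with the siRNA. COL4A5 had 64.5, 98.5 and 81.6 CPM in ephrin-B1 siRNA against 53.2, 59.6 and 53.2 CPM in Ctrl, with no overlap, and rose by 0.55 (SE 0.068, blocked adjusted p = 0.000123, unblocked adjusted p = 0.0937). LAMB2 had 208, 253 and 237 CPM in ephrin-B1 siRNA against 182, 200 and 186 CPM in Ctrl, also with no overlap, and rose by 0.29 (SE 0.047, unblocked adjusted p = 0.0795). LAMC3, a gamma chain of low level here, rose by 0.29 (SE 0.084).

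The siRNA effect in cells that also received EphB2-Fc is EphB2 + ephrin-B1 siRNA vs EphB2, which shares no library with ephrin-B1 siRNA vs Ctrl. Here too the replicate numbers and the fit are the same, so the 2 comparisons are not independent experiments. There 11 of 57 members (19.3%) passed with the block, where 9.93% of all genes did, all 11 among the 27 members of at least 10 CPM, where 19.4% of the genes passed. Of these 3 rose (4.53% of all genes) and 8 fell (5.4%), and 4 members did not overlap between the groups (14.5% of all genes). Without the block edgeR called 0 members (0.616% of all genes), 5 had an unadjusted p under 0.05, DESeq2 called 1 (COL8A1) and limma 0, and without replicate 3 the block gave 2 calls (COL4A5 and LAMC1), the 2 that held whichever replicate number was left out. COL4A5 had 53.4, 64.9 and 55.9 CPM in EphB2 + ephrin-B1 siRNA against 36.9, 49.1 and 41.8 CPM in EphB2 and rose by 0.45 (SE 0.071). LAMB2 had 175, 187 and 179 CPM in EphB2 + ephrin-B1 siRNA against 153, 157 and 157 CPM in EphB2 and rose by 0.21 (SE 0.047). Neither gene overlapped between these groups in CPM. In TPM LAMB2 did overlap, with 87.6, 87.8 and 96.5 TPM in EphB2 + ephrin-B1 siRNA against 106, 78.3 and 90.7 TPM in EphB2. In the unblocked fit with an offset for transcript length its fold change was 0.04 and did not pass. LAMC1 had 334, 232 and 298 CPM in EphB2 + ephrin-B1 siRNA against 417, 350 and 382 CPM in EphB2, again without overlap, and fell by 0.42 (SE 0.059). COL13A1 fell by 0.61 (SE 0.11), COL4A2 by 0.48 (SE 0.084), FN1 by 0.36 (SE 0.074), COL5A1 by 0.34 (SE 0.095), COL8A1 by 0.29 (SE 0.063), COL4A1 by 0.25 (SE 0.067) and COL6A1 by 0.25 (SE 0.067). DESeq2 with the same block did not call FN1 (adjusted p = 0.178) or COL5A1 (0.0571). In the unblocked fit, which does not pair libraries, COL4A1 turned to 0.04 without EphB2 + ephrin-B1 siRNA replicate 2. With the block it had -0.34, -0.15 and -0.24 without replicate 1, 2 and 3. COL7A1 rose by 0.41 (SE 0.081). With limma on log2(TPM + 1) LAMB2 had the other sign here (-0.01), as COL7A1 had in the EphB2 effect with ephrin-B1 siRNA (-0.02).

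**Figure D3:**
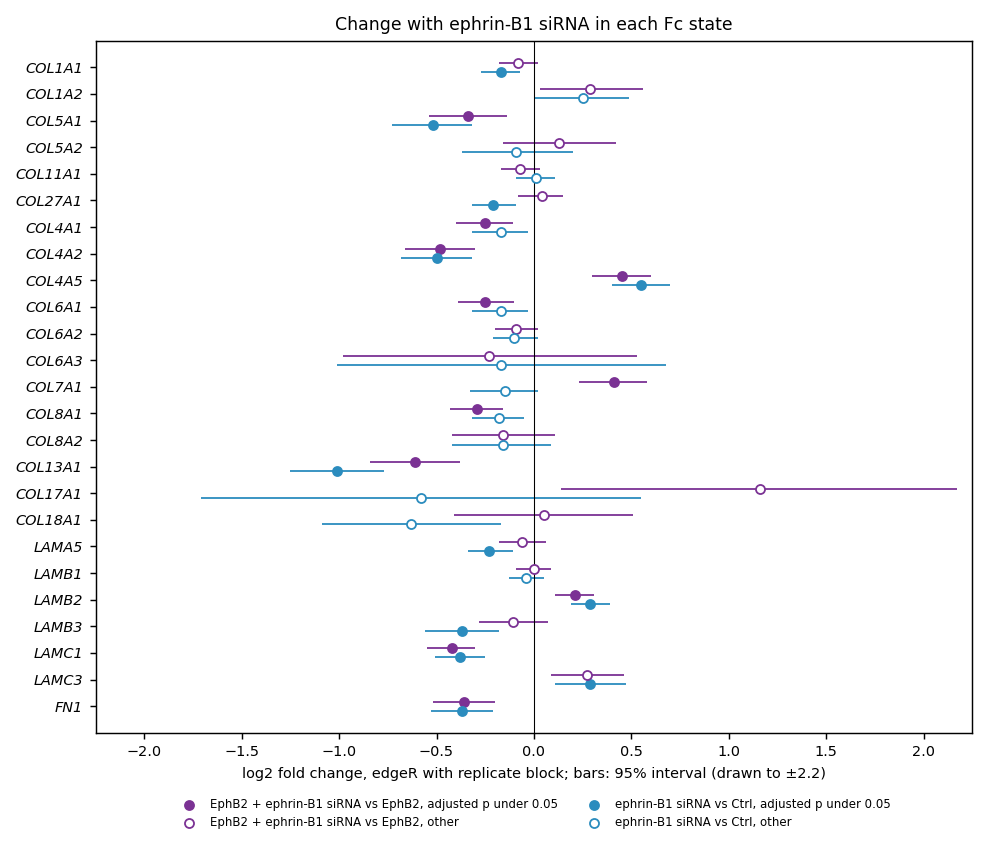
Log2 fold change with ephrin-B1 siRNA of the same 25 members, in cells with EphB2-Fc (purple) and with Ctrl-Fc (blue), from the fit with the replicate block, with 95% intervals (filled: adjusted p under 0.05). COL4A5 and LAMB2 lie right of 0, and COL4A2, COL5A1, COL13A1, LAMC1 and FN1 left of 0, in both states.

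Both treatments together, EphB2 + ephrin-B1 siRNA vs Ctrl, gave the only calls of edgeR without the block when all 12 libraries were used with TMM, the count minimum of 10 and no offset for transcript length. COL1A1 had 2719, 2474 and 2736 CPM in EphB2 + ephrin-B1 siRNA against 3585, 3462 and 3598 CPM in Ctrl and fell by 0.42 in the unblocked fit (SE 0.077, adjusted p = 0.0174). COL8A1 had 497, 415 and 455 CPM in EphB2 + ephrin-B1 siRNA against 569, 593 and 574 CPM in Ctrl and fell by 0.34 in the same fit (SE 0.077, adjusted p = 0.0475). Neither gene overlapped between the groups. These 2 calls of 57 members stood beside 2.01% of all genes, DESeq2 called the same 2 genes, and leaving out single libraries left 0 to 2 calls, with 0 without Ctrl replicate 2 or 3, without EphB2 + ephrin-B1 siRNA replicate 2 or 3, with only the compared groups in the fit, with an offset for transcript length and with limma. With the block 16 members (28.1%) passed, where 15.1% of all genes did, and all 16 were among the 27 members of at least 10 CPM, where 29.0% of the genes passed. Of these 5 rose (6.06% of all genes) and 11 fell (9.04%), 5 members did not overlap between the groups (18.3% of all genes), and without replicate 3 there were 7 calls. COL6A1, COL6A2, COL7A1, LAMB3 and COL27A1 rose by 0.40, 0.30, 0.26, 0.28 and 0.20. DESeq2 with the same block did not call LAMB3 (adjusted p = 0.141) or, among the fallers, COL4A2 (0.0544) and FN1 (0.367). COL8A2, the partner of COL8A1 in collagen VIII, fell by 0.57 (SE 0.12), with 18.4, 9.48 and 15.4 CPM in EphB2 + ephrin-B1 siRNA against 25.8, 17.2 and 21.0 CPM in Ctrl.

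In this comparison COL4A5 and LAMB2 had fold changes of 0.07 (95% interval -0.08 to 0.22) and -0.07 (-0.17 to 0.03) and did not pass. The summed level of the fibroblast and pericyte markers, most of it VIM, was 1377 to 1664 TPM in EphB2 + ephrin-B1 siRNA, 1686 to 1968 TPM in EphB2, 1804 to 2132 TPM in ephrin-B1 siRNA and 1867 to 2182 TPM in Ctrl. None of the 11 markers was at 0 in every library, and the part of this difference in the member results was not tested.

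**Figure D4:**
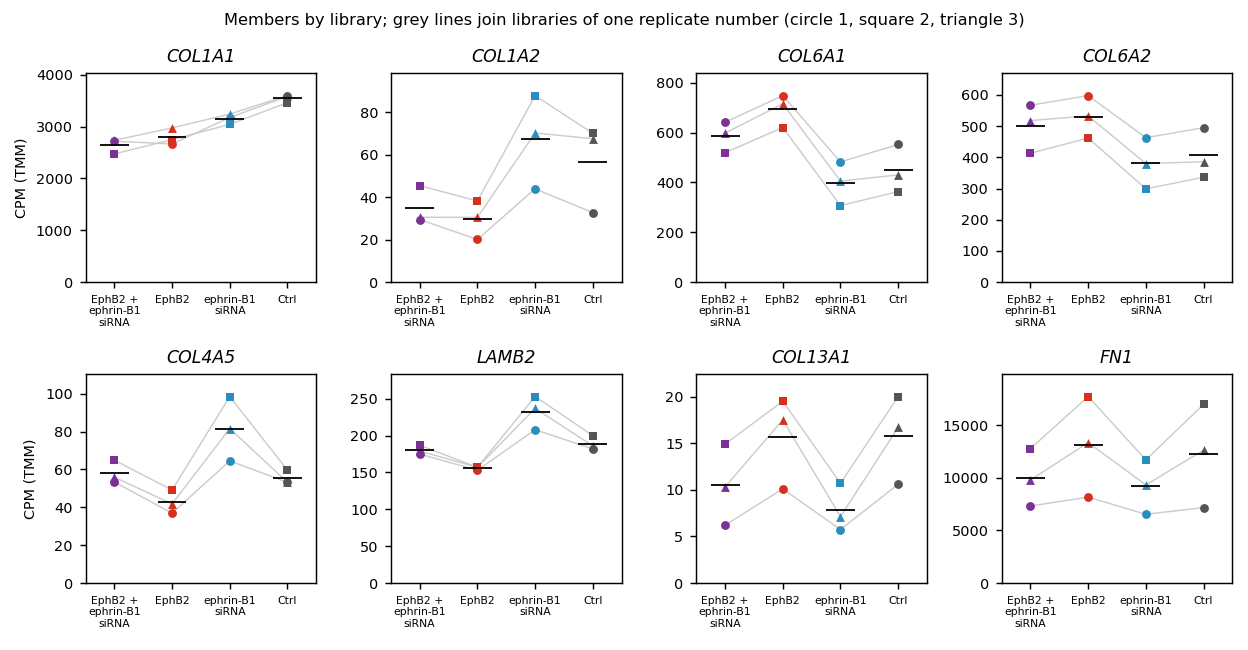
Level of 8 members in each library (CPM after TMM, axes from 0), with a bar for the mean of 3 libraries and grey lines between libraries of 1 replicate number. COL6A1 and COL6A2 stand higher and COL1A1 and COL1A2 lower in both EphB2-Fc groups, COL4A5 and LAMB2 stand highest in ephrin-B1 siRNA, and FN1 and COL13A1 spread widely by replicate number.

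FN1 transcripts differ by 2 extra type III domain exons, EDB and EDA, which are known from embryonic and wound matrix. Of the 11 annotated transcripts that span the EDB site, 3 hold the exon, and their share of the TPM was 22.4, 21.9 and 22.5% in EphB2 + ephrin-B1 siRNA and 17.1, 16.4 and 17.2% in EphB2. In ephrin-B1 siRNA it was 20.5, 18.8 and 19.8%, against 18.7, 14.7 and 15.6% in Ctrl. Both siRNA groups thus lay above their partners without overlap, by a wide gap with EphB2-Fc and a gap of 18.8 against 18.7% with Ctrl-Fc. The share averaged 22.3 ± 0.321% in EphB2 + ephrin-B1 siRNA, 16.9 ± 0.436% in EphB2, 19.7 ± 0.854% in ephrin-B1 siRNA and 16.3 ± 2.10% in Ctrl (SD, n = 3 each). The EDA exon, present in 6 of 14 transcripts that span its site, had overlapping shares of 48.5 ± 3.97, 48.4 ± 4.87, 46.3 ± 3.60 and 49.4 ± 3.82% in the same 4 groups. No test was made, since the exon was singled out after its values were seen, and the shares are the estimates that kallisto made from reads common to many transcripts. The EDB exon lies at chr2:215392931-215393203 on the minus strand and is shown in capitals with 10 intron bases on each side (chr2:215392921-215393213).
FN1 EDB: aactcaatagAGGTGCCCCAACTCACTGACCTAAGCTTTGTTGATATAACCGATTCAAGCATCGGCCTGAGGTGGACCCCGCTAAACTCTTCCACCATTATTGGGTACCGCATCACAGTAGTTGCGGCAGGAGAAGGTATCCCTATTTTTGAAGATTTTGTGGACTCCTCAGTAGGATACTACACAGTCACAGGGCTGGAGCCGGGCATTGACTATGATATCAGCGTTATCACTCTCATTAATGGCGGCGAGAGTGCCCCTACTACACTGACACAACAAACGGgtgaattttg
The exon is coding, and the bases ag before it and gt after it are the splice signals.

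**Figure D5:**
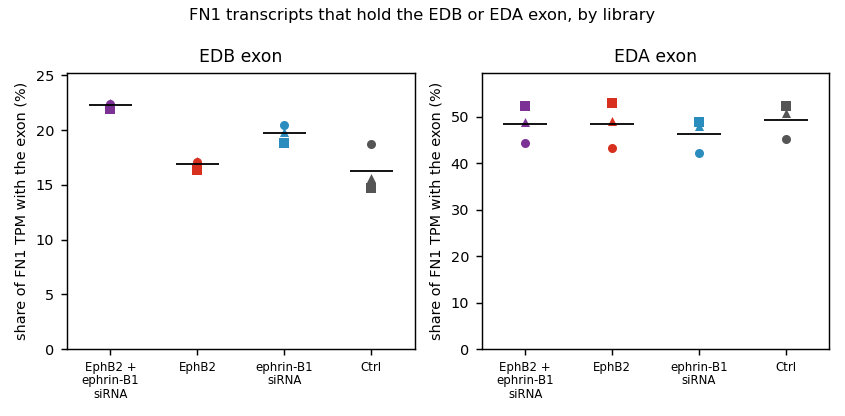
Share of TPM on FN1 transcripts with the EDB exon (left) or the EDA exon (right) in each library. It is given in % of the TPM of the FN1 transcripts that span the exon site (11 for EDB, 14 for EDA). Axes start at 0, and a bar marks the mean of 3 libraries. The EDB share is 21.9 to 22.5% in EphB2 + ephrin-B1 siRNA and 14.7 to 18.7% in Ctrl, and the EDA shares of the 4 groups overlap.

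Several members differed more between replicates 1 and 2 than between groups. FN1 was 1.75 to 2.37 times higher in replicate 2 than in replicate 1 in each of the 4 groups. The same direction held in all 4 groups for COL12A1 (2.04 to 3.01 times), COL1A2 (1.54 to 2.14 times) and COL13A1 (1.87 to 2.40 times). In the other direction COL18A1, the source of endostatin, was 2.21 to 5.90 times, LAMA5 2.18 to 2.55 times, COL4A1 1.69 to 2.24 times, COL4A2 1.51 to 2.28 times and COL5A1 1.57 to 2.45 times higher in replicate 1 in all 4 groups. COL1A1 hardly differed, by 0.970 to 1.10 times. Of the 27 members of at least 10 CPM, replicate 3 lay between replicates 1 and 2 in 24, 20, 20 and 24 members in EphB2 + ephrin-B1 siRNA, EphB2, ephrin-B1 siRNA and Ctrl, where 61.7 to 67.8% of all genes at that level did so. The level of COL18A1 in CPM was 217, 98.1 and 139 (EphB2 + ephrin-B1 siRNA), 226, 59.7 and 197 (EphB2), 181, 44.1 and 151 (ephrin-B1 siRNA) and 383, 64.9 and 172 (Ctrl). It passed in no comparison, and shares 1563 exon bases, 18.5% of its own, with SLC19A1 on the opposite strand. Whether the counts used strand is not given in the sources used here, so reads of this overlap cannot be told apart.

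Genes of collagen processing, among them enzymes that modify and cross-link collagen, were compared from a list of 34 genes, of which 33 were tested. With EphB2-Fc 0 passed without the block by edgeR, with 1 at an unadjusted p under 0.05, and with the block LOX rose by 0.33 and 2 fell, namely BMP1, which trims procollagen ends, by 0.31 and the cross-linking oxidase LOXL1 by 0.32, where 2.13% of all genes rose and 3.2% fell. In ephrin-B1 siRNA vs Ctrl 3 fell without the block, where 1.81% of all genes passed. LOXL2 averaged 312 CPM in ephrin-B1 siRNA and 572 CPM in Ctrl (log2 fold change -0.87, SE 0.13, adjusted p = 0.0089). LOXL1 averaged 64.0 and LOXL3 50.7 CPM in ephrin-B1 siRNA, against 99.2 and 69.9 CPM in Ctrl (adjusted p = 0.0133 and 0.0285). With the block 4 rose (MIA3, P3H1, P3H2 and SERPINH1) and 9 fell, or 13 of 33, where 6.51% of all genes rose and 7.06% fell. Among genes of at least 10 CPM, where most of the list lay, 26.0% passed with the block in either direction. Of 35 other matrix proteins, 33 tested, TGFBI (257 CPM in ephrin-B1 siRNA, 447 CPM in Ctrl, adjusted p = 0.0157) and THBS2 (102 CPM in ephrin-B1 siRNA, 174 CPM in Ctrl, adjusted p = 0.0275) fell and the microfibril gene FBN1 (121 CPM in ephrin-B1 siRNA, 73.1 CPM in Ctrl, adjusted p = 0.0203) rose without the block, where 1.81% of all genes passed. With the block 3 rose and 9 fell, beside the same 6.51% and 7.06% of all genes and 26.0% of the genes of at least 10 CPM. With EphB2-Fc 0 passed without the block by edgeR, with 2 at an unadjusted p under 0.05. With the block 1 rose and 4 fell, beside the same shares of all genes as for the collagen processing list. Of the genes of at least 10 CPM, 10.3% passed with the block in that comparison.

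The last list held 18 genes of TGF-beta and MRTF-SRF signaling, known regulators of collagen genes. With EphB2-Fc the SRF coactivator MYOCD averaged 75.8 CPM in EphB2 and 30.5 CPM in Ctrl and rose without the block (1.31, SE 0.19, adjusted p = 0.0472). With the block 5 rose in all and 3 fell, where 5.34% of all genes and 10.3% of the genes of at least 10 CPM passed. In ephrin-B1 siRNA vs Ctrl the TGF-beta receptor TGFBR2 averaged 81.3 CPM in ephrin-B1 siRNA and 128 CPM in Ctrl (adjusted p = 0.00741), and SKIL averaged 90.7 CPM in ephrin-B1 siRNA and 145 CPM in Ctrl (adjusted p = 0.0361). Both fell without the block, where 1.81% of all genes passed. With the block 1 rose and 7 fell, where 13.6% of all genes and 26.0% of the genes of at least 10 CPM passed.

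The 32 members not given in full passed in no comparison in either edgeR fit. They ranged from COL9A3 (11.1 TPM), COL16A1 (8.91 TPM), LAMA3 (3.69 TPM) and COL12A1 (3.43 TPM) to COL24A1 and COL6A5, with 29 and 12 counts over the 12 libraries. The FACIT collagens, which sit on the surface of fibrils, had 0 calls by edgeR among 10 members in each of the 6 comparisons. In the fit without the block 0 of them had an unadjusted p under 0.05.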

How the data were processed

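HMC3 libraries were rRNA-depleted and read as paired 100-base ends. The authors quantified transcripts with kallisto against Ensembl cDNA of GRCh38 (the version of kallisto is not given in the sources used here) and deposited 1 table per library with estimated counts and TPM per transcript, where TPM is scaled to transcript length and library. Of 188753 transcripts, 167067 (88.5%) were paired with a gene, and these held 95.25 to 95.98% of the counts. For each gene the estimated counts of its transcripts were added and rounded, which left 21601 genes whose sum over the 12 libraries reached 10.

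TMM normalization and the quasi-likelihood test of edgeR 4.0.16 were used, in 1 fit of the 4 groups over the 12 libraries, with Benjamini-Hochberg adjustment over all genes at 0.05. The same fit with the replicate number as a block, DESeq2 1.42.0, limma 3.58.1 on log2(TPM + 1), other filters and scalings, and leaving out libraries were alternatives, run in R 4.3.3. The scripts were tested on simulated data. Same-numbered libraries were taken as pairs because their submitted names share an experiment number. Deviations from the group means correlated at 0.67 to 0.75 within number 1, 0.7 to 0.73 within number 2 and 0.03 to 0.18 within number 3. With the block, edgeR estimated a coefficient of variation between replicates of 0.0649, against 0.182 otherwise. Nothing in the labels says that replicates were separate cultures beyond these numbers, so p-values measure the spread between these libraries.

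Members named in full were those called in any comparison with or without the block, the 12 with the highest mean TPM, and their trimer partners. Of the other matrix lists, genes with the smallest p in each were named. The members, lists and tests were chosen with earlier results of these data known. Promoters are from RefSeq (GRCh38.p14), and 42 of 57 members were matched by symbol. COL1A1, COL1A2 and COL6A1 were among the 15 unmatched. The genome sequence and exons are GRCh38.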

Additional observations from a re-analysis of the deposited data

Results flagged for a closer look

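In COL7A1 and COL17A1 the ephrin-B1 siRNA groups lay on opposite sides of their partners in the 2 Fc states, higher in all 3 pairs with EphB2-Fc and lower in all 3 pairs with Ctrl-Fc. For COL7A1 the difference between the 2 siRNA effects was 0.54 on the log2 scale (edgeR interaction, unadjusted p = 0.0256, adjusted p = 1.0, and adjusted p = 0.361 with the block), and DESeq2 with the block gave an adjusted p of 0.00251. For COL17A1, which had under 6 CPM in every library, it was 1.39 (unadjusted p = 0.317, adjusted p = 1.0, and adjusted p = 0.7 with the block). Neither passed by edgeR, in either fit.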

How the results depend on the processing

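Counts of members called are given in the order of the comparisons above: EphB2-Fc with control siRNA, the siRNA with Ctrl-Fc, EphB2-Fc with ephrin-B1 siRNA, the siRNA with EphB2-Fc, and both treatments against neither. The fit without the block gave 0, 0, 0, 0 and 2 calls. The replicate block, which pairs libraries of 1 experiment number, gave 10, 12, 11, 11 and 16, and DESeq2 with the block 10, 12, 11, 9 and 15, with 1 in the interaction (COL7A1), where the cause was not tested. Calls of edgeR with the block that DESeq2 with the block did not make were LAMB3 in the first comparison, FN1, LAMB3 and LAMC3 in the second, COL17A1 in the third, FN1 and COL5A1 in the fourth, and FN1, LAMB3 and COL4A2 in the fifth. To COL17A1 DESeq2 with the block gave no adjusted p. DESeq2 without the block gave 2, 2, 4, 1 and 2. With the block the counts were 6, 12, 11, 12 and 14 without replicate 1, 12, 7, 11, 5 and 13 without replicate 2, and 3, 5, 6, 2 and 7 without replicate 3, of which the first pair of settings was chosen after seeing the data. Filtering by filterByExpr and an offset for transcript length each gave 1 call in EphB2 + ephrin-B1 siRNA against ephrin-B1 siRNA (COL27A1 and LAMB2). In EphB2 + ephrin-B1 siRNA vs Ctrl, calls were 1 without a filter, 0 with the groups compared alone, 0 with the length offset and 0 with limma. Leaving out single libraries without the block gave 0 to 2 calls in this comparison and in ephrin-B1 siRNA vs Ctrl, and 0 in the others. For EFNB1 the fold change was -1.48 to -1.26 over these leave-outs and -0.95 with limma, where it did not pass (adjusted p = 0.325), nor without replicate 3 in every group (adjusted p = 0.747).

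Of the 60 fold changes of named members that passed in either fit, 51, 42 and 23 passed with the block without replicate 1, 2 and 3. Limma on log2(TPM + 1) turned the sign of COL1A1 (0.03), COL27A1 (0.10) and LAMA5 (0.16) in ephrin-B1 siRNA vs Ctrl, of COL7A1 (-0.02) in EphB2 + ephrin-B1 siRNA against ephrin-B1 siRNA, and of LAMB2 (-0.01) in the siRNA effect with EphB2-Fc, and the cause was not tested. Without the block, leaving out single libraries gave fold changes of -0.53 to 0.10 for LAMA5 in EphB2 vs Ctrl, -0.59 to 0.13 in ephrin-B1 siRNA vs Ctrl and -0.60 to 0.07 in EphB2 + ephrin-B1 siRNA vs Ctrl. COL4A1 had -0.49 to 0.04 in the siRNA effect with EphB2-Fc, and COL4A2 and FN1 had -0.52 to 0.03 and -0.57 to 0.01 in EphB2 + ephrin-B1 siRNA vs Ctrl. The positive values came without replicate 1 of Ctrl or replicate 2 of EphB2, ephrin-B1 siRNA or EphB2 + ephrin-B1 siRNA, and for FN1 without Ctrl replicate 2. These fits do not pair libraries. With the block and a replicate number left out of every group, the same fold changes stayed negative, though not all passed. Other scalings moved the median of all genes by at most 0.017.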
